A study of Mus musculus with 14 samples.

Results

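The proteasome genes were taken as every array row with a single gene symbol that begins with Psma to Psmg followed by a number, and where a gene had several such rows the brightest was used. The rule found 50 genes of 19938 in the table, from 56 rows. Of these, 48 encode subunits, activators, an inhibitor or assembly factors of the proteasome, and 2, Psmc3ip and Psme3ip1, encode proteins named for an interaction with a proteasome gene product. The genes were compared over 14 arrays of proximal duodenum from 9 age-matched mice on a mixed 129S7/SvEv and C57/BL6 background. The 6 tumor arrays came from 6 Lrig1-CreERT2/CreERT2 (Lrig1-/-) mice, in which an insertion of the tamoxifen-dependent recombinase CreERT2 disrupts both copies of Lrig1, an inhibitor of ErbB receptor signalling that marks gut stem cells. The 5 adjacent arrays held normal duodenum next to the tumor of 5 of those 6 mice, so they carry the same genotype, and the 3 arrays of wildtype duodenum came from 3 further mice. No tumor of a wildtype mouse was measured, so the comparisons with wildtype join genotype and tissue. Values are log2 array signals, on which a difference of 1 is a doubling of signal, and fold changes are differences of log2 signals, tumor minus the named normal tissue.

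The proteasome is the barrel-shaped protease that degrades ubiquitin-tagged proteins. Its 20S core has outer alpha rings and inner beta rings, with the active sites on the beta subunits Psmb5, Psmb6 and Psmb7, and the 19S cap recognises, unfolds and feeds in the substrate. Interferon-gamma induces substitute active subunits (Psmb8 for Psmb5, Psmb9 for Psmb6, Psmb10 for Psmb7), which form the immunoproteasome, and the PA28 activator made of Psme1 and Psme2. These favour peptides that fit MHC class I molecules, and lymphocytes and other immune cells hold immunoproteasomes without further stimulation. In the small bowel the epithelium itself and the lymphocytes within it can both contribute such transcripts.

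Array medians over all rows lay between 7.11 and 7.26 in tumors, between 7.15 and 7.23 in adjacent tissue and between 7.14 and 7.29 in wildtype. Over the 19938 genes fitted, medians were 7.63 to 7.79 in tumors, 7.59 to 7.68 in adjacent tissue and 7.61 to 7.69 in wildtype. Lrig1 signal was 7.65 to 8.54 in tumors, 6.95 to 7.40 in adjacent tissue and 8.22 to 9.54 in wildtype, so tumors and wildtype overlapped. Which part of the transcript the probes read relative to the insertion was not analysed here. Enterocyte markers were bright in all normal arrays, with list means of 12.74 to 13.59 in adjacent tissue and 12.04 to 13.47 in wildtype, as the tissue label states. The wildtype group held an array that stood apart. Wildtype replicate 1 had a mean of 13.40 over 6 gastric pit cell markers, within the tumor range of 12.31 to 13.85, while the other wildtype arrays had 6.73 and 7.17. Adjacent replicates 1 and 2 and wildtype replicates 1 and 3 also carried pancreatic acinar transcripts, with list means of 13.16 to 14.15.

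All 3 active subunits of the immunoproteasome fell in tumors, and they were the members with the largest falls in both comparisons. Psmb8 fell most, to a signal 4.33-fold lower than in adjacent tissue and 3.65-fold lower than in wildtype, followed by Psmb9 at 2.66-fold and 2.58-fold lower and Psmb10 at 2.01-fold and 1.90-fold lower. Of the constitutive active subunits, Psmb5 rose and neither Psmb6 nor Psmb7 was called.

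Psmb8 encodes the substitute for the chymotrypsin-like subunit. Its log2 signal in tumors ran from 7.93 to 8.91 with a median of 8.30, against 10.58, 10.26, 10.30, 10.64 and 10.74 in adjacent tissue and 9.59, 10.80 and 10.47 in wildtype. Every tumor lay below every normal array, and wildtype replicate 1, the array with gastric pit transcripts, was the lowest of the normal arrays. The fold change was -2.12 ± 0.18 (SE) against adjacent tissue, with a limma adjusted p of 1.63e-06, and -1.87 ± 0.25 against wildtype, with an adjusted p of 0.000575. Psmb8 was lower in the tumor of all 5 mice with both tissues, by -1.68 to -2.39.

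Psmb9 encodes the substitute for the caspase-like subunit, which shifts cleavage away from acidic residues. Its log2 signal in tumors ran from 8.59 to 9.61 with a median of 9.07, against 10.46, 10.15, 10.40, 10.48 and 10.87 in adjacent tissue and 10.02, 10.91 and 10.44 in wildtype. Again no tumor overlapped a normal array, and the brightest tumor was replicate 1. The fold change was -1.41 ± 0.16 against adjacent tissue (adjusted p = 1.01e-05) and -1.37 ± 0.22 against wildtype (adjusted p = 0.00156), with the tumor lower in 5 of 5 mice.

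Psmb10 encodes the substitute for the trypsin-like subunit. Its log2 signal in tumors ran from 9.79 to 10.65 with a median of 10.10, against 11.41, 11.30, 11.01, 10.96 and 11.15 in adjacent tissue and 10.97, 11.29 and 11.09 in wildtype. The groups did not overlap, and tumor replicates 1 and 2 were the brightest tumors, as they were for Psmb8 and Psmb9. The fold change was -1.01 ± 0.13 against adjacent tissue (adjusted p = 2.92e-05) and -0.93 ± 0.18 against wildtype (adjusted p = 0.00397). Without wildtype replicate 1 the fold changes against wildtype were -2.22 for Psmb8, -1.58 for Psmb9 and -1.0005 for Psmb10, and all 3 calls held. In the mice whose ID begins with F, which hold only that wildtype array, none of the 3 was called against wildtype: Psmb8 was at -1.01, Psmb9 at -0.74 and Psmb10 at -0.53. Psmb10 was also not called, at -0.84 (adjusted p = 0.0843), when only the normal arrays with acinar transcripts were used.

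**Figure D1:**
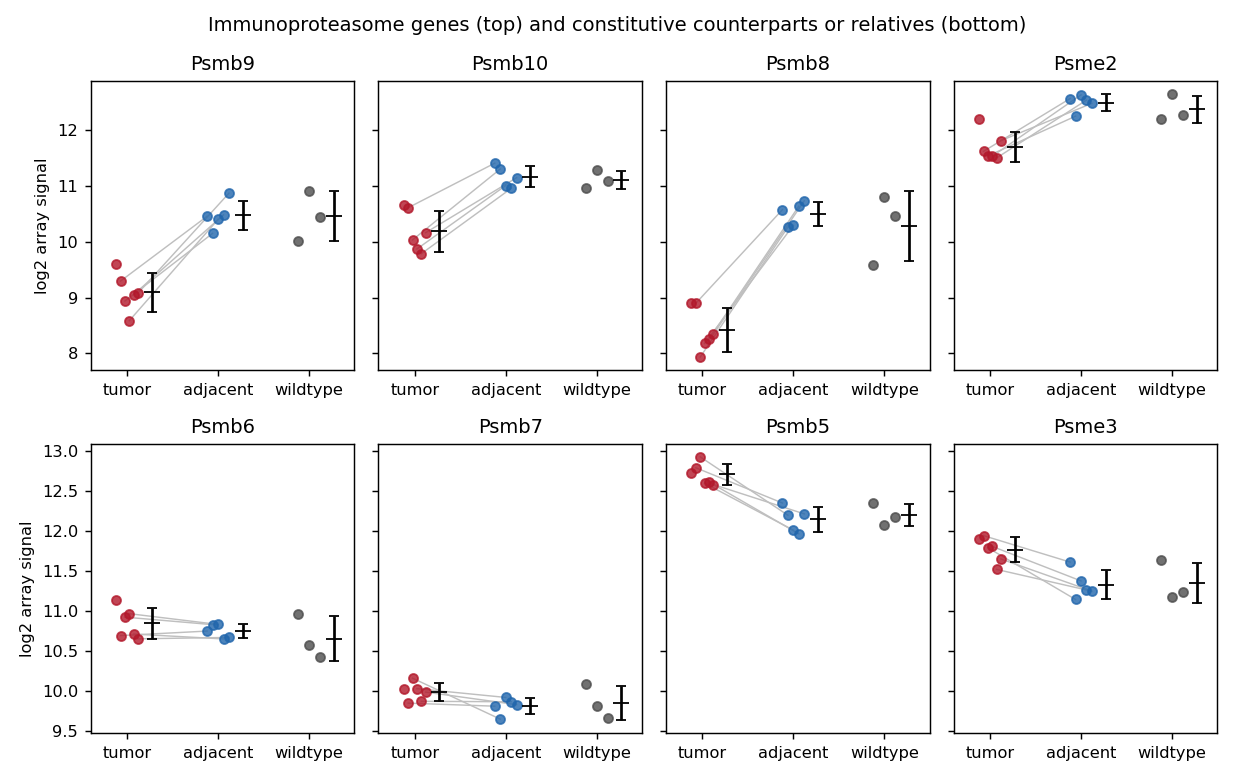
Log2 array signal of 4 interferon-induced proteasome genes (top row) and of Psmb6, Psmb7, Psmb5 and Psme3 (bottom row) in 6 tumor, 5 adjacent and 3 wildtype arrays; grey lines join tissues of the same mouse and bars show the mean ± SD. Psmb8 lies between 7.93 and 8.91 in tumors and at 9.59 or above in the normal arrays, whereas Psmb5 lies at 12.59 or above in tumors and at 12.36 or below in the normal arrays.

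The transcripts of each pair were compared within each array as the log2 signal of the substitute minus that of the subunit it replaces. The exchange of subunits in the proteasome itself was not measured. Since each gene has its own probes, the size of such a difference is not a ratio of transcripts, and only its change between groups can be read. All 3 differences were lower in tumors than in adjacent tissue in 5 of 5 mice. Psmb8 minus Psmb5 averaged -4.39 ± 0.40 in the tumors of these mice and -1.65 ± 0.24 in their adjacent tissue (SD, n = 5 each), a change of -2.74 that corresponds to a 6.67-fold shift. Psmb9 minus Psmb6 averaged -1.80 ± 0.39 in tumors and -0.27 ± 0.33 in adjacent tissue, a change of -1.53. Psmb10 minus Psmb7 averaged 0.12 ± 0.39 in tumors and 1.35 ± 0.27 in adjacent tissue, a change of -1.24. The exact two-sided permutation p was 0.0625 for each, the smallest that 5 pairs allow, or 0.0938 after Benjamini-Hochberg adjustment over 9 such tests, so these pairs alone cannot reach 0.05.

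Against wildtype the changes were -2.37 for Psmb8 minus Psmb5, -1.56 for Psmb9 minus Psmb6 and -1.06 for Psmb10 minus Psmb7. Each had an exact two-sided permutation p of 0.0119, the smallest that 6 against 3 arrays allow, and an adjusted p of 0.0357. All 6 tumors lay below all 3 wildtype arrays for each difference. Wildtype replicate 1 was the lowest wildtype array in all 3, at -2.76, -0.95 and 0.88. Between adjacent tissue and wildtype the differences moved by 0.27, -0.08 and 0.09, with exact p-values of 0.554, 0.857 and 0.643.

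**Figure D2:**
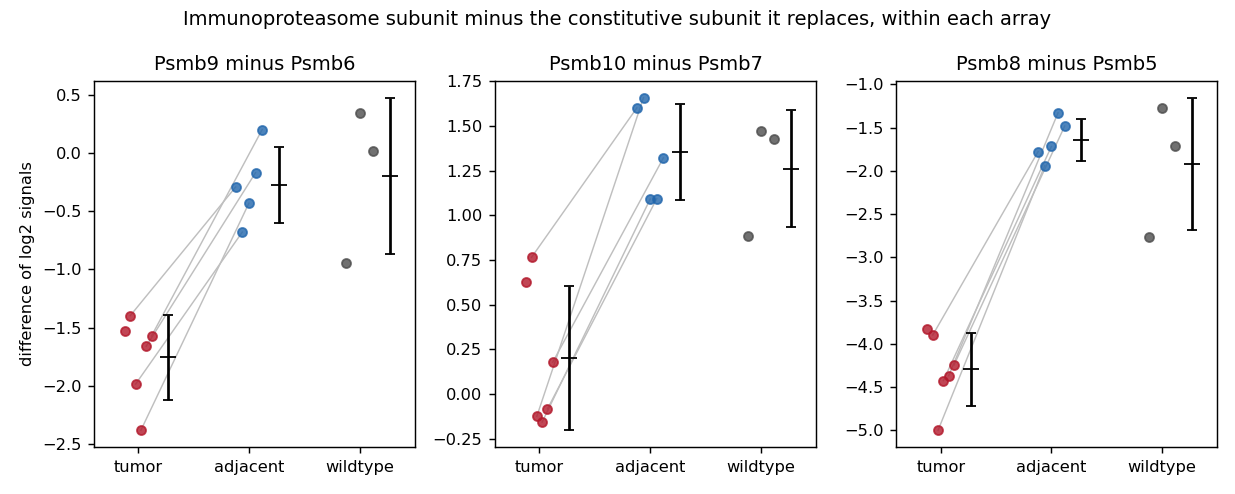
Within-array difference of log2 signals between each immunoproteasome subunit and the constitutive subunit it replaces, in 6 tumor, 5 adjacent and 3 wildtype arrays; grey lines join tissues of the same mouse and bars show the mean ± SD. For Psmb8 minus Psmb5 every tumor is at -3.83 or lower and every normal array at -2.76 or higher.

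Psmb8 and Psmb9 lie on mouse chromosome 17 in the MHC class II region, in the order Psmb9, Tap1, Psmb8, Tap2, with the peptide transporter genes of the class I pathway between and beside them. All 4 genes fell in tumors against both normal tissues. Tap1 had a mean log2 signal of 8.58 ± 0.16 in tumors, 9.997 ± 0.28 in adjacent tissue and 10.04 ± 0.66 in wildtype, and Tap2 had 8.45 ± 0.15 in tumors, 9.49 ± 0.33 in adjacent tissue and 9.31 ± 0.55 in wildtype. The fold changes against adjacent tissue were -1.42 ± 0.16 for Tap1 (adjusted p = 9.81e-06) and -1.05 ± 0.15 for Tap2 (adjusted p = 9.82e-05). Psmb10 lies apart on chromosome 8, where its nearest measured neighbours Ctrl and Lcat were not called and Pskh1 rose by 0.26 (adjusted p = 0.00578).

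RefSeq promoter windows of build GRCm38.p6, each running from 250 bases before to 50 after an annotated start, were matched for 42 of the 50 genes. Those shown here belong to Psmb8 and Psmb9, the members with the largest falls, to Psme1 and to Psmb5, the constitutive active subunit that rose. The start of Psmb9 on the minus strand lies 226 bases from that of Tap1 on the plus strand, so the windows of these genes share 275 bases. Capitals mark a match, on either strand, to the core of the interferon-stimulated response element (GAAA, any 2 bases and GAAA) or to the core of the antioxidant response element bound by Nrf1 and Nrf2 (TGACNNNGC).
Psmb8: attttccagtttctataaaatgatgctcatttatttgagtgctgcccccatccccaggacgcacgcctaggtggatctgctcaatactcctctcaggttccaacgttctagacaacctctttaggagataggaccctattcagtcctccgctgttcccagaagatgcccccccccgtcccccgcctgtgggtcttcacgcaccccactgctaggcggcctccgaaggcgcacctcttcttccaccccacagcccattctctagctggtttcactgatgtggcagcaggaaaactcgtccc
Psmb9: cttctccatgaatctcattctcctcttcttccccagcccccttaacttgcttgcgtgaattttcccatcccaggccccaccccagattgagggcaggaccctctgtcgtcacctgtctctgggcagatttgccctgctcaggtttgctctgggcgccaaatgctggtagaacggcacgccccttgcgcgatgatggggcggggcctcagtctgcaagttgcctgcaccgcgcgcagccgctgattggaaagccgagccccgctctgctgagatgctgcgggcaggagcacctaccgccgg
Psme1: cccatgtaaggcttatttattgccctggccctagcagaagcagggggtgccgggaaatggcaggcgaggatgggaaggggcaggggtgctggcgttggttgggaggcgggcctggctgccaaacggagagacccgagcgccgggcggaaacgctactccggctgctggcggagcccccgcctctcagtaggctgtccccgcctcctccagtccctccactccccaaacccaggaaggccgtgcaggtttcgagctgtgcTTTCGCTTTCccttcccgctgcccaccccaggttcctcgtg
Psmb5: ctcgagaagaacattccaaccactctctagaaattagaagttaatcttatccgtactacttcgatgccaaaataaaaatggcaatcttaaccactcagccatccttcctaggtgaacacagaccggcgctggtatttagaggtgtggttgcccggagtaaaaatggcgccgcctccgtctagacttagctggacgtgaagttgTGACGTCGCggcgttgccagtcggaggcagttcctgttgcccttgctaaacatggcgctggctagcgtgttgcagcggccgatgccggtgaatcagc
The windows are chr17:34197945-34198244 on the plus strand for Psmb8, chr17:34187281-34187580 on the minus strand for Psmb9, chr14:55578244-55578543 on the plus strand for Psme1 and chr14:54617946-54618245 on the minus strand for Psmb5. Psme1 holds an interferon-stimulated core at position 10 from the start and Psmb5 an antioxidant core at position -47. The Psmb8 and Psmb9 windows hold neither, and no window shown holds more than 1 match, so no matches overlap. Of the windows not shown, that of Psmb6 holds an antioxidant core at position -9, and those of Psmb10 and Psme2 hold neither. Among all 32851 windows of this length, 3.44% hold the interferon-stimulated core and 12.4% the antioxidant core. Among 46 windows of members, 5 hold the interferon-stimulated core, those of Psmb3, Psmd4, Psmd9, Psme1 and Psmg4. The antioxidant core lies in 6, those of Psmb5, Psmb6, Psmc6, Psmd12, Psmd9 and Psme4. Against adjacent tissue Psmb3, Psmb5 and Psmd12 rose, Psme1 fell and the rest of these genes were not called. Of all genes, 19.1% rose and 12.6% fell in that comparison, and a link between matches and calls was not tested. Psme1 is the only one of the 5 interferon-induced genes with a match to the interferon-stimulated core. Only exact matches to these cores within these windows were searched. A window without a match may therefore still hold other interferon-responsive sites. A match describes the letters of the window and is not a measured binding site.

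The interferon-induced activator PA28 fell as well. Psme2, its beta subunit, had log2 signals of 11.50 to 12.19 in tumors with a median of 11.58, against 12.57, 12.25, 12.63, 12.54 and 12.48 in adjacent tissue and 12.20, 12.65 and 12.27 in wildtype. The groups did not overlap, but tumor replicate 1, at 12.19, came next to wildtype replicate 1, at 12.20. The fold change was -0.83 ± 0.11 against adjacent tissue (adjusted p = 4.89e-05) and -0.67 ± 0.16 against wildtype (adjusted p = 0.0113). Without wildtype replicate 2 the call against wildtype was lost, at -0.53 (adjusted p = 0.0948). The call against adjacent tissue was lost in 1 of 26 alternatives. An array row that carries the symbols Psme2b and Psme2 together, and so is no member, differed by -1.14 on average over the 5 mice.

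Psme1, the alpha subunit of PA28, had log2 signals of 10.88 to 11.33 in tumors with a median of 11.11, against 11.68, 11.27, 11.68, 11.66 and 11.84 in adjacent tissue and 10.999, 11.82 and 11.69 in wildtype. Adjacent replicate 2 and wildtype replicate 1 lay within the tumor range. Psme1 fell by 0.54 ± 0.12 against adjacent tissue (adjusted p = 0.00329), and its fold change of -0.40 ± 0.17 against wildtype was not called (adjusted p = 0.151). Without wildtype replicate 1 it was called there too, at -0.65 (adjusted p = 0.00751). Its call against adjacent tissue was lost in 2 of 26 alternatives. Psme1 and Psme2 are close neighbours on chromosome 14, where Emc9, between them, and Rnf31, a subunit of the linear ubiquitin ligase beside Psme2, also fell against adjacent tissue, by 0.74 and 0.59. On the other side of Psme1, Fitm1 (0.11) and Pck2 (0.21) were not called, and Dcaf11, between those, fell by 0.57.

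Over all members, 12 rose and 5 fell against adjacent tissue, and 33 were not called. Of all genes tested, 31.7% were called in this comparison, 19.1% as risen and 12.6% as fallen, so 12 of 50 risen and 5 of 50 fallen are shares near those of all genes. Against wildtype 5 members rose and 4 fell, where 14.1% of all genes were called, 9.65% as risen and 4.48% as fallen. The count of members that rose against wildtype was 16 without wildtype replicate 1, 0 without wildtype replicate 2, 1 without wildtype replicate 3 and 3 without tumor replicate 1, 2 or 4, and that against adjacent tissue was 7 without adjacent replicate 5. The share of all genes called was not counted in such alternatives, so these shifts cannot be read as particular to the members. The groups did not overlap for 11 members against adjacent tissue, where 17.2% of all genes did not, and for 7 against wildtype, where 13.6% did not. The fallen members were Psmb8, Psmb9, Psmb10, Psme1 and Psme2 against adjacent tissue, and the same genes without Psme1 against wildtype. Of the 43 other subunits and factors, none fell in the fit reported, 37 had a positive fold change against adjacent tissue and 37 against wildtype. Their median fold change was 0.13 against adjacent tissue, beside 0.04 over all genes, and 0.21 against wildtype, beside 0.00 over all genes. With each array centred on its median over the fitted genes, 6 rather than 12 members rose against adjacent tissue, and Psma4 (-0.24, adjusted p = 0.0293) and Psmd8 (-0.20, adjusted p = 0.0431) fell.

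**Figure D3:**
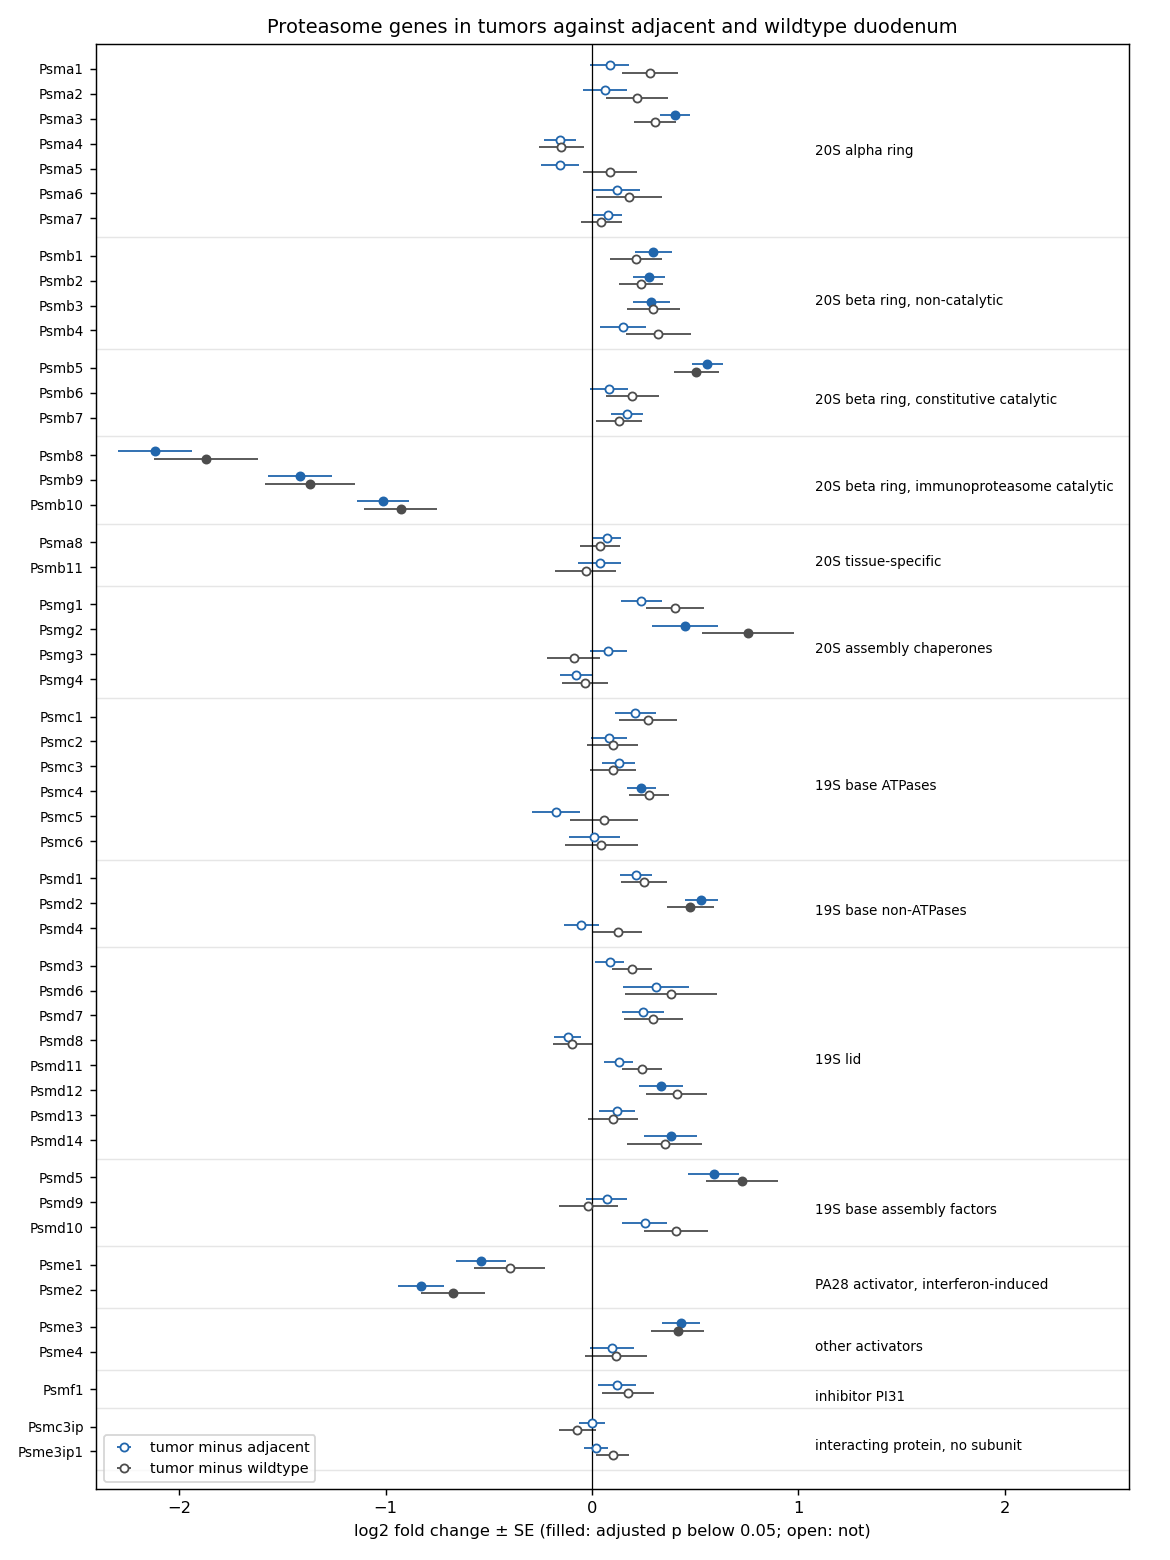
Log2 fold change ± SE of the 50 genes in tumors against adjacent tissue (blue, upper) and wildtype (grey, lower), grouped by role; filled points have a limma adjusted p below 0.05. The 3 immunoproteasome subunits and PA28 lie left of 0, with Psmb8 at -2.12 against adjacent tissue, and Psmd5 at 0.59 is the furthest right in that comparison.

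Among the constitutive active subunits, Psmb5, which carries the chymotrypsin-like activity, had log2 signals of 12.59 to 12.93 in tumors with a median of 12.68. Adjacent tissue had 12.35, 12.20, 12.01, 11.97 and 12.22, and wildtype had 12.36, 12.08 and 12.19. Every tumor lay above every normal array. Psmb5 rose by 0.56 ± 0.08 against adjacent tissue (adjusted p = 6.36e-05) and by 0.51 ± 0.11 against wildtype (adjusted p = 0.00741). The call against wildtype was lost without wildtype replicate 2 (0.44, adjusted p = 0.0631). Psmb6, the caspase-like subunit, averaged 10.85 ± 0.19 in tumors, 10.75 ± 0.09 in adjacent tissue and 10.66 ± 0.28 in wildtype, and its fold change of 0.08 ± 0.09 against adjacent tissue was not called (adjusted p = 0.576). Psmb7, the trypsin-like subunit, averaged 9.99 ± 0.12 in tumors, 9.81 ± 0.10 in adjacent tissue and 9.85 ± 0.22 in wildtype, and its 0.17 ± 0.08 was not called either (adjusted p = 0.123).

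Of the 4 beta subunits without an active site, 3 rose against adjacent tissue, where 19.1% of all genes rose, and none was called against wildtype. Psmb1 rose by 0.30 ± 0.09 (adjusted p = 0.0201), Psmb2 by 0.28 ± 0.08 (adjusted p = 0.0124) and Psmb3 by 0.29 ± 0.09 (adjusted p = 0.0256), while Psmb4 was at 0.15 and not called. With mouse as a fixed block Psmb1 was at 0.27 and no longer called (adjusted p = 0.0563). Of 26 alternatives, the calls of Psmb1 and Psmb3 were lost in 8 each and that of Psmb2 in 3, and without adjacent replicate 5 Psmb1 was at 0.22 (adjusted p = 0.0837) and Psmb3 at 0.27 (adjusted p = 0.0756). The tumors of Psmb2 did not overlap adjacent tissue. Psmb3 is read by a pair of rows that may cover near-identical copies, and both rows gave a like mean pair difference, 0.27 and 0.30.

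Of the 7 alpha ring subunits, only Psma3 was called, against adjacent tissue alone, where 31.7% of all genes were called. It had log2 signals of 10.83 to 11.11 in tumors with a median of 11.01, against 10.65, 10.34, 10.69, 10.66 and 10.59 in adjacent tissue and 10.74, 10.71 and 10.60 in wildtype. No normal array reached the lowest tumor. Psma3 rose by 0.40 ± 0.07 against adjacent tissue (adjusted p = 0.00062), and its 0.30 ± 0.10 against wildtype was not called (adjusted p = 0.0627). Its 3 rows gave mean pair differences of 0.40, 0.42 and 0.29. Psma4, at -0.16, had the lowest fold change of this ring against adjacent tissue and was not called. It was called in 6 of 26 alternatives, among them without adjacent replicate 2, its lowest adjacent array (-0.24, adjusted p = 0.0106).

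The 19S cap has 17 subunits among the members. Of these, 4 rose against adjacent tissue, 1 rose against wildtype and none fell, with median fold changes of 0.13 and 0.24. The share of all genes that rose was 19.1% against adjacent tissue and 9.65% against wildtype. Psmd2, the large base subunit that docks ubiquitin-handling proteins, had log2 signals of 11.36 to 11.71 in tumors with a median of 11.53, against 11.01, 10.95, 11.07, 10.96 and 11.01 in adjacent tissue and 11.34, 10.98 and 10.86 in wildtype. The lowest tumor, at 11.36, stood just above wildtype replicate 1, and no group overlapped the tumors. Psmd2 rose by 0.53 ± 0.08 against adjacent tissue (adjusted p = 0.000144) and by 0.48 ± 0.11 against wildtype (adjusted p = 0.0129), the call against wildtype being lost without wildtype replicate 2 (0.43, adjusted p = 0.0855) or without wildtype replicate 3 (0.38, adjusted p = 0.0929). Psmc4, an ATPase of the base ring, rose by 0.24 ± 0.07 against adjacent tissue (adjusted p = 0.0154). Its call was lost in 6 of 26 alternatives, among them with mouse as a fixed block (0.22, adjusted p = 0.0621). Psmc5, another of these ATPases, had the lowest fold change of the cap against adjacent tissue, -0.18 ± 0.12, and was not called. In the lid, Psmd14, the metalloprotease that removes ubiquitin chains, rose by 0.38 ± 0.13 against adjacent tissue (adjusted p = 0.0351). Psmd12, a scaffold subunit of the lid, rose by 0.33 ± 0.10 (adjusted p = 0.0234). The calls of Psmd14 and Psmd12 were each lost in 11 and 10 of 26 alternatives, in that order, among them without adjacent replicate 5 (0.33 for both, with adjusted p = 0.122 for Psmd14 and 0.0615 for Psmd12). Psmd8, also of the lid, was at -0.12 and not called.

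Assembly factors had the largest rises, Psmd5 against adjacent tissue and Psmg2 against wildtype. Psmd5, a chaperone of the 19S base, had log2 signals of 9.44 to 10.19 in tumors with a median of 9.77, against 9.38, 9.22, 9.23, 9.12 and 8.99 in adjacent tissue and 9.53, 8.90 and 8.74 in wildtype. Tumors and adjacent tissue did not overlap, and wildtype replicate 1 lay within the tumor range. Psmd5 rose by 0.59 ± 0.12 against adjacent tissue (adjusted p = 0.0017) and by 0.73 ± 0.17 against wildtype (adjusted p = 0.0127). The call against wildtype was lost without wildtype replicate 2 (0.65, adjusted p = 0.0858) or without wildtype replicate 3 (0.57, adjusted p = 0.0953). The other base chaperones, Psmd10 and Psmd9, were at 0.26 and 0.07 against adjacent tissue and not called.

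Psmg2, a chaperone of 20S alpha ring assembly, had log2 signals of 8.73 to 9.74 in tumors with a median of 9.33, against 8.94, 8.94, 8.78, 9.04 and 8.43 in adjacent tissue and 9.06, 8.53 and 8.01 in wildtype. The tumor range overlapped both normal groups, since tumor replicate 6 was the lowest tumor at 8.73. Psmg2 rose by 0.45 ± 0.16 against adjacent tissue (adjusted p = 0.0414) and by 0.76 ± 0.22 against wildtype (adjusted p = 0.0347). Both calls were fragile: the first was lost without any of 9 of the 14 arrays, and the second without any of 6. Its partner Psmg1 was at 0.24 against adjacent tissue and 0.40 against wildtype, Psmg3 at 0.08 and -0.09, and Psmg4 at -0.08 and -0.03, and none of them was called.

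Psme3, which forms the nuclear activator PA28-gamma and is not an interferon-induced gene, moved opposite to Psme1 and Psme2. Its log2 signals ran from 11.52 to 11.95 in tumors with a median of 11.80, against 11.61, 11.15, 11.38, 11.27 and 11.25 in adjacent tissue and 11.64, 11.18 and 11.24 in wildtype. Adjacent replicate 1 and wildtype replicate 1 lay within the tumor range. Psme3 rose by 0.43 ± 0.09 against adjacent tissue (adjusted p = 0.0019) and by 0.42 ± 0.13 against wildtype (adjusted p = 0.043), the call against wildtype being lost without any of 9 of the 14 arrays and with arrays centred on their medians. Psme4, the activator PA200, was at 0.10 against adjacent tissue, and the inhibitor PI31, encoded by Psmf1, at 0.12, and neither was called. Psma8, the alpha subunit of testis, averaged 5.67 ± 0.15 in tumors, 5.61 ± 0.09 in adjacent tissue and 5.63 ± 0.04 in wildtype, and Psmb11, the active subunit of the thymus cortex, averaged 6.23 ± 0.22 in tumors, 6.20 ± 0.08 in adjacent tissue and 6.27 ± 0.35 in wildtype. These were the dimmest members and showed no called change.

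Adjacent tissue did not differ from wildtype in any member by this test. The called share of all genes was 0%, that is 0 of 19938 genes at an adjusted p below 0.05 with limma, while 559 genes and 0 members had an unadjusted p below that value. Member fold changes between these tissues ran from -0.17 for Psmg3 to 0.31 for Psmg2. Psmb8 was at 0.25 ± 0.26, Psmb9 at 0.05 ± 0.23 and Psmb10 at 0.08 ± 0.18 (adjusted p = 0.998 for each). These errors are wide for Psmb8 and Psmb9, and a call that was missed does not show that the tissues are alike. With array weights 1 member, Psmg3, fell in this comparison.

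Genes of the pathway outside the Psm symbols were followed through lists. In the class I loading list, 6 of 10 measured genes fell and 2 rose against adjacent tissue, with a median of -0.44. Beside Tap1 and Tap2, Erap1, the peptide-trimming peptidase of the endoplasmic reticulum, fell by 0.76 (adjusted p = 0.00146) and the peptide editor Tapbpl by 0.66 (adjusted p = 8.96e-05), while the chaperones Pdia3 and Calr rose by 0.47 and 0.19. Nlrc5, the class I transactivator, was at -0.22 and not called. Against wildtype 4 fell and 2 rose. All 12 measured genes of the interferon-gamma induced list fell against adjacent tissue and 7 against wildtype, with H2-Ab1, a class II chain, at -2.26 ± 0.16 and H2-Aa, its partner chain, at -2.23 ± 0.15. Of 8 measured genes of interferon-gamma and its signalling, 3 fell against adjacent tissue: Irf1 by 1.13, Jak2 by 0.91 and Irf8 by 0.79. The cytokine gene Ifng itself was dim, with means of 6.45 in tumors, 6.54 in adjacent tissue and 6.67 in wildtype, and was not called. Among 12 type I interferon induced genes 6 fell and 1 rose against adjacent tissue. Of all genes, 12.6% fell and 19.1% rose against adjacent tissue, and 4.48% fell and 9.65% rose against wildtype.

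Of 16 measured cofactors outside the Psm symbols, 4 rose against adjacent tissue and none fell, with a median of 0.08, beside 19.1% risen and 12.6% fallen among all genes. Usp14, the deubiquitinase bound to the 19S base, rose by 0.56 ± 0.10 against adjacent tissue (adjusted p = 0.000538) and by 0.63 ± 0.14 against wildtype (adjusted p = 0.00899). The shuttle factor gene Ubqln2 rose by 0.49 and 0.61 in these comparisons (adjusted p = 0.00726 and 0.0335), and Txnl1 and Ubqln4 rose against adjacent tissue by 0.25 and 0.23. Pomp, which matures the 20S core, was at -0.10 and not called. Of 11 genes of the Nrf1 and Nrf2 axis, which controls proteasome genes under stress, 3 rose and 2 fell against adjacent tissue, to be read beside the same shares. Nfe2l3 rose by 1.14 ± 0.19 (adjusted p = 0.000336), Hmox1 by 0.94 ± 0.15 (adjusted p = 0.000218) and Nfe2l1, which encodes Nrf1, by 0.30 ± 0.08 (adjusted p = 0.00666). Srxn1 and Gclm fell by 0.82 and 0.65, and Nfe2l2, which encodes Nrf2, was at 0.00. Of the ubiquitin genes and activating enzymes, 2 of 7 were measured, and Uba7, the activating enzyme for ISG15, fell by 0.89 (adjusted p = 0.00013).

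Cell type marker lists differed between tumors and normal tissue, some lower and others higher in tumors. Of all genes, 12.6% fell and 19.1% rose against adjacent tissue, and 4.48% fell against wildtype. The T and NK cell list averaged 6.94 to 7.69 in tumors, 8.61 to 9.02 in adjacent tissue and 8.05 to 8.89 in wildtype, with no overlap between tumors and either normal group. Of its 13 measured genes 12 fell against adjacent tissue and 10 against wildtype. The fold change against adjacent tissue was -3.17 for Gzmb, -3.05 for Gzma, -2.95 for Cd3g and -2.58 for Nkg7, all larger falls than that of Psmb8. In tumors Gzmb averaged 7.24 and Cd8a 7.75, against 10.36 and 9.80 in adjacent tissue. Of 7 B and plasma cell markers 4 fell against adjacent tissue and none was called against wildtype. Of 10 macrophage and dendritic cell markers 6 fell and 1, Cd14, rose against adjacent tissue, and the list averaged 8.15 to 8.61 in tumors, 8.50 to 9.10 in adjacent tissue and 8.35 to 8.57 in wildtype. The enterocyte list averaged 10.46 to 10.87 in tumors, and 9 of its 10 genes fell against each normal tissue, whereas all 6 gastric pit cell markers, 6 of 8 mast cell markers and 5 of 6 fibroblast markers rose against adjacent tissue. The part of these cell types in the falls and rises of proteasome genes was not tested, and in bulk tissue fewer cells of a type and less RNA per cell cannot be told apart.

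**Figure D4:**
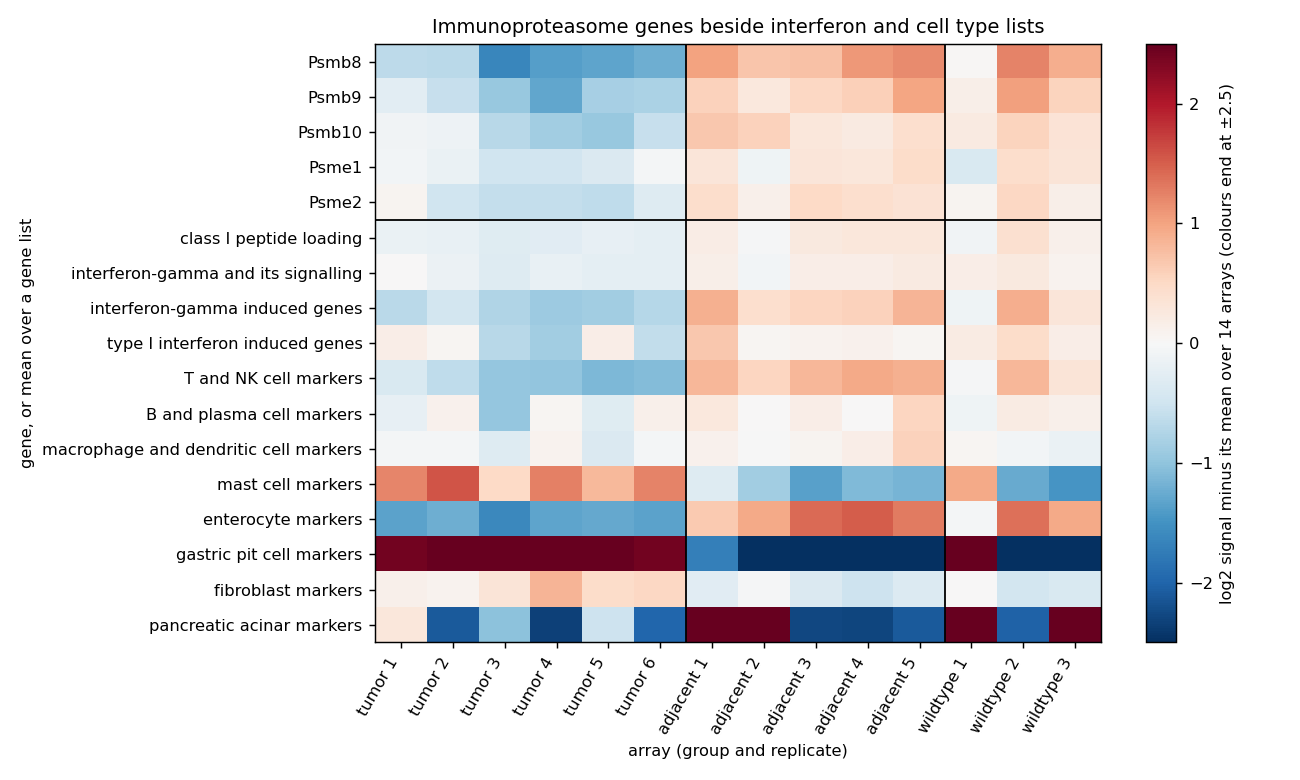
Log2 signal minus its mean over the 14 arrays for 5 interferon-induced proteasome genes (top) and for the means of 12 gene lists (bottom), by array, with tumors left, adjacent tissue in the middle and wildtype right; red is above and blue below the gene's or list's own mean, and colours end at ±2.5. T and NK cell, enterocyte and interferon-gamma induced lists are lower in all 6 tumors than in all normal arrays, and wildtype replicate 1 shows gastric pit and mast cell markers near tumor levels.

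Over the 14 arrays, the genes whose pattern was most like that of Psmb8 were Zswim5, Mfsd4b2, Btnl2, H2-Q2, Mme, Pipox, H2-Ab1, Ssx2ip, Treh and Exoc3l4, with Pearson correlations of 0.983 to 0.988. These arrays share the difference between tumors and normal tissue, and the values are given as a description. As deviations from the group means, the correlation with Psmb8 was 0.955 for Zswim5, 0.876 for H2-Ab1 and 0.861 for Treh. By the correlation over the 14 arrays, Psmb9 ranked 30 of 19937 other genes, Psmb10 306, Psme2 339 and Psme1 765. By that of the deviations, Psmb9 ranked 54, Psme1 66 and Psme2 619, and Psmb10, with a correlation of 0.661, lay between Psme1 and Psme2. The lowest correlations among the members were those of Psmd2, at -0.927, and Psmb5, at -0.885. Within groups these were weaker, at -0.579 and -0.244.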

How the data were processed

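Total RNA of each tissue was measured on 1 Affymetrix Mouse Gene 1.0 ST array, per the labels' protocols. The deposited values are log2 signals per transcript cluster, a unit read from their range of 2.87 to 14.8. Affymetrix Expression Console 1.1 and build mm9 are named per the submitters' processing notes, and no source used here gives the background correction or normalization. Symbols came from the platform annotation, updated through a RefSeq table, and the row with the highest mean was kept per gene. limma 3.58.1 in R 4.3.3 fitted group means of all 14 arrays and 19938 genes, with mouse as a random block (correlation 0.334) and two-sided tests, Benjamini-Hochberg adjusted over all genes at 0.05, so fold changes weigh the pairs and can differ from differences of means. The same mouse gave tumor and adjacent tissue in 5 pairs, whose deviations from group means correlated by -0.03 to 0.39. The fit was tested on simulated data. Arrays of 1 group come from separate mice. The members, partners, motifs and 15 lists (164 entries, 24 with no gene) were chosen with earlier results of these data known. Named genes are Psmb5 to Psmb10, Psme1 and Psme2, the members with the largest change of each role, up to 4 called genes per list, and others by role, some named after their values were seen. Alternatives covered the mouse block, scaling, array weights, dim genes, rows, single arrays, acinar arrays and the ID letter of the mouse, whose meaning is not given. The number of arrays limits the precision.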

Additional observations from a re-analysis of the deposited data

Results flagged for a closer look

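4 of 100 tests for a sample far from its group picked out an array among the members, and chance picks about 1 in 20 groups. Psma4, an alpha ring subunit, was at 9.96 in adjacent replicate 2, where the nearest adjacent array was at 10.29. Psma6, of the same ring, was at 11.46 in tumor replicate 1, where the nearest tumor was at 11.07. Psmc2, an ATPase of the 19S base, was at 8.82 in adjacent replicate 1, where the nearest adjacent array was at 9.12. Psme4, the activator PA200, was at 9.995 in tumor replicate 6, where the nearest tumor was at 10.35. In the fit reported, none of these 4 genes was called in any comparison. In alternatives, Psma4 fell against adjacent tissue in 6 of 26, one of them without adjacent replicate 2 (-0.24, adjusted p = 0.0106), and with array weights Psma4 (-0.21, adjusted p = 0.0291) and Psme4 (0.29, adjusted p = 0.0114) were called against wildtype.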

How the results depend on the processing

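Against adjacent tissue, Psmb8 stayed called in all 26 alternatives, at -2.30 to -1.88, Psmb9 at -1.68 to -1.06 and Psmb10 at -1.14 to -0.85. Against wildtype they were called except within mice with ID letter F, with 1 wildtype array, at -1.01, -0.74 and -0.53 (adjusted p = 0.605, 0.585 and 0.693), and Psmb10 with only the acinar normal arrays at -0.84. The count of fallen members against adjacent tissue was 3 within letter F. Against wildtype it was 7 with array weights, whose estimation stopped before convergence, 2 with only the acinar normal arrays and 0 within letter F, and between adjacent tissue and wildtype array weights gave 1 fallen member, Psmg3. The count of risen members against adjacent tissue was 7 with no replicate block, 6 with arrays centred, 3 with only the acinar normal arrays, 5 within letter F, 7 within letter B and 7 to 15 when single arrays were left out, 7 being without adjacent replicate 5. With mouse as a fixed replicate block 10 rose, Psmb1 (0.27) and Psmc4 (0.22) losing their calls. Against wildtype the risen count was 24 with array weights, 0 with only the acinar normal arrays, 0 within letter F, 8 within letter B and 0 to 16 when single arrays were left out. It was 16 without wildtype replicate 1, 0 without wildtype replicate 2, 1 without wildtype replicate 3, and 3 without tumor replicate 1, 2 or 4. The count of rises against wildtype depends on single arrays. How many of all genes were called was not counted in the alternatives, so these counts have no share to be read beside. Within-array differences against adjacent tissue moved by less than their spread in every alternative run. Against wildtype, Psmb8 minus Psmb5 was -3.02 without the acinar arrays and -1.48 within letter F, Psmb9 minus Psmb6 was -2.10 without them, -0.69 within F and -2.05 within B, and Psmb10 minus Psmb7 was -0.46 within F and -1.47 within B. Between adjacent tissue and wildtype, Psmb8 minus Psmb5 was -0.23 without the acinar arrays and 0.90 within F, Psmb9 minus Psmb6 was 0.46 within F, and Psmb10 minus Psmb7 was -0.30 without the acinar arrays, 0.47 with only them, 0.75 within F and -0.28 within B. Fewer arrays enter the letter and acinar settings, and further causes were not tested. Wildtype had 3 arrays, 1 of them with gastric pit transcripts.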
